A study of Mus musculus with 10 samples.

Results

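AA467197, Prxl2a, Plac8, Epas1, Tmem273 and Pdlim4 are 6 genes whose transcripts were far higher in CD49b+ than in CD25+ CD4+ T cells of the mouse spleen. They are 6 of the 17097 genes named on the array, and were chosen by name from that difference, which is therefore described here without a test. Every probe set annotated to 1 of these symbols was taken, which gave 9 of 45037, and each gene is followed by its main probe set, the one with the highest mean over the 10 arrays. Among the 11037 genes bright enough to test, the members held ranks 2, 3, 4, 6, 9 and 10 of the difference between CD49b+ and CD25+ cells, and all 6 members passed that filter. The other genes among the first 10 were Pparg, Ccr2, Ltb4r1 and Ctla2b.

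All cells came from the spleens of DBA/1 mice, an inbred strain, and were enriched for CD4+ cells with magnetic beads before sorting. The CD49b+ cells (n = 3 arrays) and the CD25+ cells (n = 3) came from mice given immature dendritic cells, the resting form of the cells that present antigen to T cells, and so did 1 group of CD4+ cells (n = 2). CD4+ cells of naive mice (n = 2) had received none. Each injection put 500000 dendritic cells into the peritoneum, on days -7, -5 and -3 before the spleens were taken. CD49b is the integrin alpha 2 chain, the product of Itga2, and CD25 the alpha chain of the interleukin 2 receptor, the product of Il2ra. Cells of several mice were pooled for sorting, and no label says whether each replicate had its own pool, so the p-values measure the spread between these arrays, which may be technical. No subset was sorted from naive mice, so that the difference between subsets cannot be told apart from a response to injection that is particular to 1 subset.

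The values are log2 expression levels, on which a difference of 1 is 2-fold. Il2ra averaged 6.29 in CD49b+ and 8.83 in CD25+ cells, against 4.17 in both CD4+ groups, and Foxp3, the lineage factor of regulatory T cells, averaged 6.45, 8.25, 4.64 and 4.92 in CD49b+, CD25+, injected CD4+ and naive CD4+ cells. Itga2 averaged 5.78 in CD49b+ cells and 5.82 in CD4+ cells of injected mice, so that the transcript of the marker that defined the CD49b+ sort was not called higher there (-0.05 ± 0.11 SE, limma adjusted p = 0.717). It was higher in CD49b+ than in CD25+ cells by 0.31 ± 0.10 (adjusted p = 0.0349), and CD25+ cells differed from CD4+ cells of injected mice by -0.36 ± 0.11 (adjusted p = 0.0247). Array medians lay between 4.61 and 4.65 in the subsets and between 4.79 and 4.81 in the CD4+ groups, and the nonspecific control probe sets, which show background, between 3.20 and 3.41. The Gapdh 3' minus 5' difference, a sign of RNA quality, was 0.23 to 0.69 on the subset arrays and -0.01 to 0.26 on the CD4+ arrays, and its part in the differences between them was not tested. Centring the arrays on their medians moved the median difference of all genes by 0.19 where CD49b+ cells were set against CD4+ cells of injected mice and by 0.16 where CD25+ cells were. The share of higher genes among those called was then 78.3% and 78.6%, against 56.0% and 53.9% in the deposited scaling.

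The members have no common pathway. AA467197 encodes a small mitochondrial protein, known in human as C15orf48, that is related to the cytochrome c oxidase subunit Ndufa4, and its primary transcript also carries the microRNA miR-147. Prxl2a encodes a peroxiredoxin-like redox protein. Epas1 encodes HIF-2 alpha, a transcription factor that oxygen-dependent prolyl hydroxylation marks for degradation, so that much of its control acts on the protein and is not seen in transcript levels. Plac8 encodes a small cysteine-rich protein found in many leukocytes. Tmem273 encodes a transmembrane protein of little known function, and Pdlim4 a PDZ and LIM domain protein that binds alpha-actinin in the actin skeleton.

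Promoter windows, from 250 bases before to 50 after the most upstream annotated start, were read from RefSeq (GRCm38.p6) for 5 of the 6 members, without Epas1. They are shown because the transcripts of AA467197, Prxl2a and Tmem273 moved alike over the groups and each window holds the palindrome CACGTG, printed in capitals. It begins at position -82 in AA467197 (chr2:122637637-122637936, plus strand), at -28 in Prxl2a (chr14:41013784-41014083, minus strand) and at 4 in Tmem273 (chr14:32785713-32786012, plus strand), counted from the start. 
AA467197: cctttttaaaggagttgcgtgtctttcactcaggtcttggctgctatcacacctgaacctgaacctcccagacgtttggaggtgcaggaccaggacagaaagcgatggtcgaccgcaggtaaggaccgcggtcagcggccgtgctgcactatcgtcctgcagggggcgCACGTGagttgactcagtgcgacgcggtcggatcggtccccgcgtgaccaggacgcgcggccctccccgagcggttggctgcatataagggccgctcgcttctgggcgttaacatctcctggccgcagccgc
Prxl2a: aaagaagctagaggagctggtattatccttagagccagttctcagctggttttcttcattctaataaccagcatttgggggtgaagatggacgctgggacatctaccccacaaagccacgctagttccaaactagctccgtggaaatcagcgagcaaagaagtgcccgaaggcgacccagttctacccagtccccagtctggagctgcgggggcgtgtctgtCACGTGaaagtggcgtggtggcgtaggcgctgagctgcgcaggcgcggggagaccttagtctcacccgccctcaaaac
Tmem273: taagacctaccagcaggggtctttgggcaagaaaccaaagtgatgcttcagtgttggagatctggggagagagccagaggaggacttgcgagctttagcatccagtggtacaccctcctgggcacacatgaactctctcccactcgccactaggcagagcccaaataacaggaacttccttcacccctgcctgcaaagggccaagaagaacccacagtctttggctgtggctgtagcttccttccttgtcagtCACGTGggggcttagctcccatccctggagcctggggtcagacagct
CACGTG, a sequence known as an E-box, was searched for after the windows had been read, and 7.24% of 27025 genes with a window of that length hold it. It contains ACGTG, a core of the hypoxia response element, on both strands, and ACGTG was found in the same 3 of 5 windows and in 19.6% of all. In these 3 windows ACGTG occurred only inside CACGTG. The other core, GCGTG, was in 2 (AA467197 and Prxl2a) and in 32.5% of all windows. Of the other motifs searched on both strands, TGANTCA (AP-1) was in AA467197 (7.92% of all), TGTGGT (Runx) in Plac8 (16.9%), and TCACAC (T-box) in AA467197 and Plac8 (14.4%). A match describes letters in a window and not a bound site. Prxl2a has 5 such windows by its annotated starts and Plac8 has 2, and only the most upstream of each was searched.

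The AA467197 locus also carries the hairpin of miR-147, at chr2:122640814-122640837 for the 5p arm on the plus strand of GRCm38.p6. It is shown because the array measured the host transcript and not the mature microRNA. Only the 5p arm is printed, with its bases 2 to 8, the seed of that arm alone, in capitals.
mmu-miR-147-5p: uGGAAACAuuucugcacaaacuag

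AA467197 was the member with the greatest difference between CD49b+ cells and CD4+ cells. Its level was 8.78, 8.99 and 9.06 in the 3 CD49b+ arrays, 5.05, 5.72 and 5.56 in CD25+, 3.82 and 3.98 in CD4+ cells of injected mice, and 3.82 and 3.76 in naive CD4+ cells. All CD49b+ arrays were above all CD25+ arrays, and these above all CD4+ arrays, while the CD4+ groups overlapped. CD49b+ cells were higher than CD4+ cells of injected mice by 5.04 ± 0.18 (SE, 33.0-fold, limma adjusted p = 6.58e-08), and CD25+ cells by 1.55 ± 0.18 (2.92-fold, adjusted p = 0.000134). The CD4+ level lay under the median of each array, so both folds may be lower bounds, and AA467197 passed the filter through the sorted subsets. Here and for the members below, each test of a subset against CD4+ cells shares the subset's arrays with the difference that chose the members. Its p-value therefore follows in part from that choice.

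Prxl2a was also highest in CD49b+ cells, with CD25+ cells next. It stood at 10.15, 10.14 and 10.30 in CD49b+ cells, at 5.81, 6.81 and 6.93 in CD25+ cells, at 5.09 and 5.54 in CD4+ cells of injected mice and at 5.33 and 5.45 in naive CD4+ cells. The subsets did not overlap with each other or with CD4+ cells, and the CD4+ groups overlapped. CD49b+ cells were higher than CD4+ cells of injected mice by 4.88 ± 0.28 (29.4-fold, limma adjusted p = 1.31e-06), and CD25+ cells by 1.20 ± 0.28 (2.30-fold, adjusted p = 0.00825). The call in CD25+ cells was lost without replicate 1 of the injected CD4+ arrays (0.98, adjusted p = 0.0754). The other probe set of Prxl2a gave 9.57, 9.64 and 9.77 in CD49b+ and 5.10, 6.10 and 6.15 in CD25+ cells, with differences from CD4+ cells of 4.76 and 0.88.

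Tmem273 stood at 7.82, 7.51 and 7.59 in CD49b+ cells, at 4.28, 4.38 and 4.94 in CD25+ cells, at 3.61 and 3.74 in CD4+ cells of injected mice and at 3.71 and 3.76 in naive CD4+ cells. The subsets were apart from each other and from CD4+ cells, and the CD4+ groups overlapped. CD49b+ cells were higher than CD4+ cells of injected mice by 3.97 ± 0.18 (15.6-fold, limma adjusted p = 3.12e-07), and CD25+ cells by 0.86 ± 0.18 (1.81-fold, adjusted p = 0.00442). The level was under the array median on every CD4+ array and above it on 1 of 3 CD25+ arrays, so the folds may be lower bounds. Tmem273, too, passed the filter through the sorted subsets. A further probe set of Tmem273 lay between 3.22 and 3.44 on all 10 arrays, at background, so the gene's rise rests on 1 probe set. With the mean of the probe sets it was 2.02 in CD49b+ and 0.41 in CD25+ cells.

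Epas1 was high in CD49b+ cells and near its CD4+ level in CD25+ cells. Its values were 9.80, 9.73 and 10.03 in CD49b+ cells, 6.26, 6.76 and 6.94 in CD25+ cells, 6.17 and 6.77 in CD4+ cells of injected mice and 6.67 and 6.63 in naive CD4+ cells. CD49b+ arrays stood apart, and the other 3 groups overlapped. CD49b+ cells exceeded CD4+ cells of injected mice by 3.38 ± 0.21 (10.4-fold, limma adjusted p = 2.14e-06), and the difference in CD25+ cells was 0.18 ± 0.21 (95% interval -0.30 to 0.66, adjusted p = 0.535). The other probe set moved alike at a lower level, 6.57, 6.56 and 6.83 in CD49b+ and 4.52, 4.80 and 4.93 in CD25+ cells, and its difference from CD4+ cells in CD49b+ cells was smaller, 1.83.

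Plac8 was high in CD49b+ cells too, but its order in the other groups differed. It stood at 10.50, 10.66 and 10.51 in CD49b+ cells, at 6.01, 7.11 and 7.03 in CD25+ cells, at 7.04 and 7.47 in CD4+ cells of injected mice and at 7.92 and 8.04 in naive CD4+ cells. CD49b+ arrays stood above all others, and CD25+ and injected CD4+ arrays overlapped, with naive CD4+ arrays above both. CD49b+ cells were higher than CD4+ cells of injected mice by 3.30 ± 0.28 (9.88-fold, limma adjusted p = 1.38e-05). CD25+ cells differed from them by -0.54 ± 0.28 (95% interval -1.17 to 0.09, adjusted p = 0.158). Against all 4 CD4+ arrays the CD25+ cells were lower by a called -0.90 (adjusted p = 0.0117), and against the naive arrays by -1.27 (adjusted p = 0.00728).

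Pdlim4 stood apart from the other members, since its level in CD49b+ cells was that of CD4+ cells and the difference lay in a low level in CD25+ cells. It stood at 9.60, 9.66 and 9.58 in CD49b+ cells, at 5.06, 5.83 and 5.91 in CD25+ cells, at 9.44 and 9.98 in CD4+ cells of injected mice and at 9.53 and 9.37 in naive CD4+ cells. CD25+ arrays lay far under all others, and CD49b+ and injected CD4+ arrays overlapped. CD49b+ cells differed from CD4+ cells of injected mice by -0.10 ± 0.24 (95% interval -0.63 to 0.43, limma adjusted p = 0.736). The difference of CD25+ from CD4+ cells was -4.11 ± 0.24 (17.2-fold lower, adjusted p = 2.27e-06), and 1 of the 11037 genes tested had a greater fall there.

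**Figure D1:**
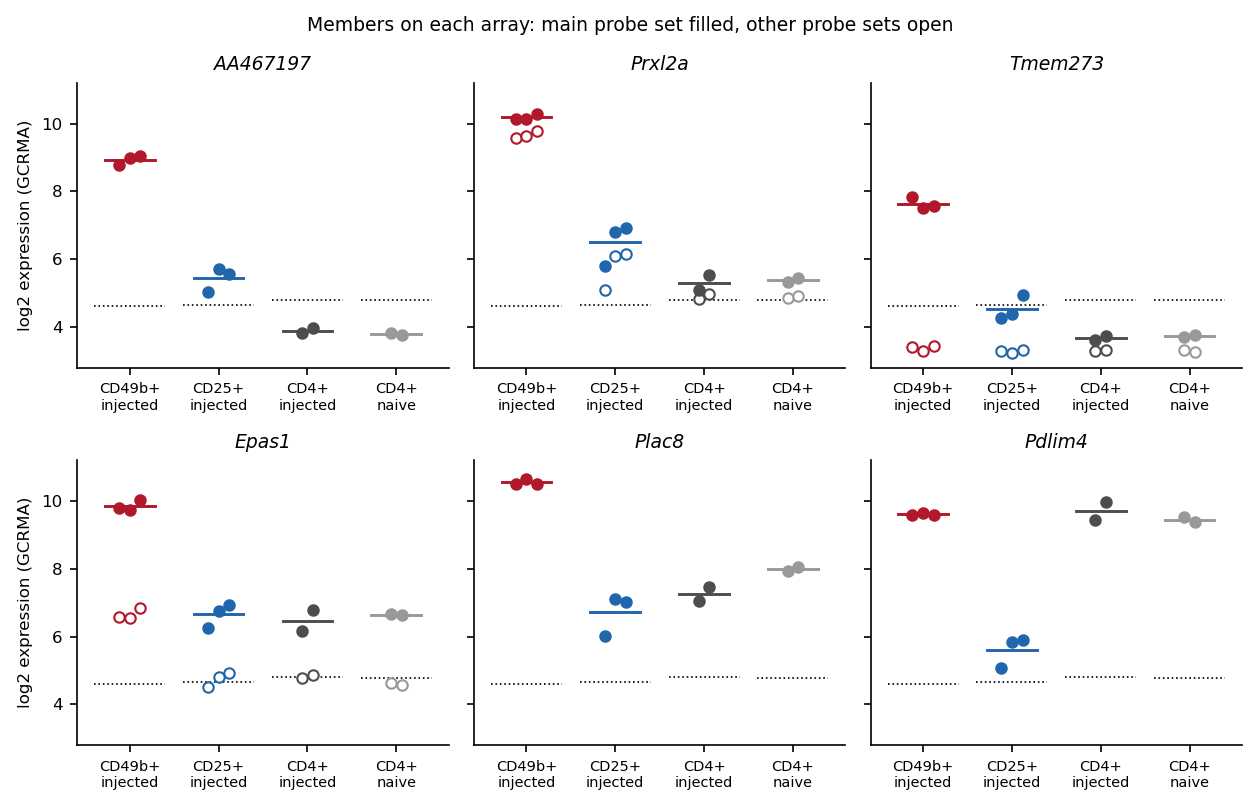
Log2 expression of the 6 members on each array (y axis, GCRMA values), with groups on the x axis, main probe sets filled, other probe sets open, the bar at the group mean and the dotted line at the mean array median of the group. The CD49b+ arrays are highest for 5 members, and for Pdlim4 the CD25+ arrays, at 5.06 to 5.91, are the only low ones.

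In CD49b+ against CD4+ cells of injected mice, 5 of the 6 members were higher and 0 lower, beside 29.9% of all genes tested called higher, 23.5% lower and 53.4% either way. In CD25+ against CD4+ cells, 3 were higher (20.8% of all genes) and 1 lower (17.8%, and 38.6% either way), namely AA467197, Prxl2a and Tmem273, and Pdlim4. All arrays of the subset lay above the injected CD4+ arrays for 5 members in CD49b+ cells (37.3% of all genes) and for 3 in CD25+ cells (31.0%), and under them for 1 in CD25+ cells (27.9%). Both comparisons share the injected CD4+ arrays, and each shares its subset arrays with the difference that chose the members, so these counts follow in part from the choice. With the arrays centred on their medians, 44.4% and 35.9% of all genes were higher and 12.3% and 9.75% lower. Directly, CD49b+ exceeded CD25+ cells by 4.01 for Pdlim4, 3.84 for Plac8, 3.68 for Prxl2a, 3.50 for AA467197, 3.20 for Epas1 and 3.11 for Tmem273, a median of 3.59 beside 0.03 over all genes, and all CD49b+ arrays lay above all CD25+ arrays, as for 24.3% of genes tested.

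**Figure D2:**
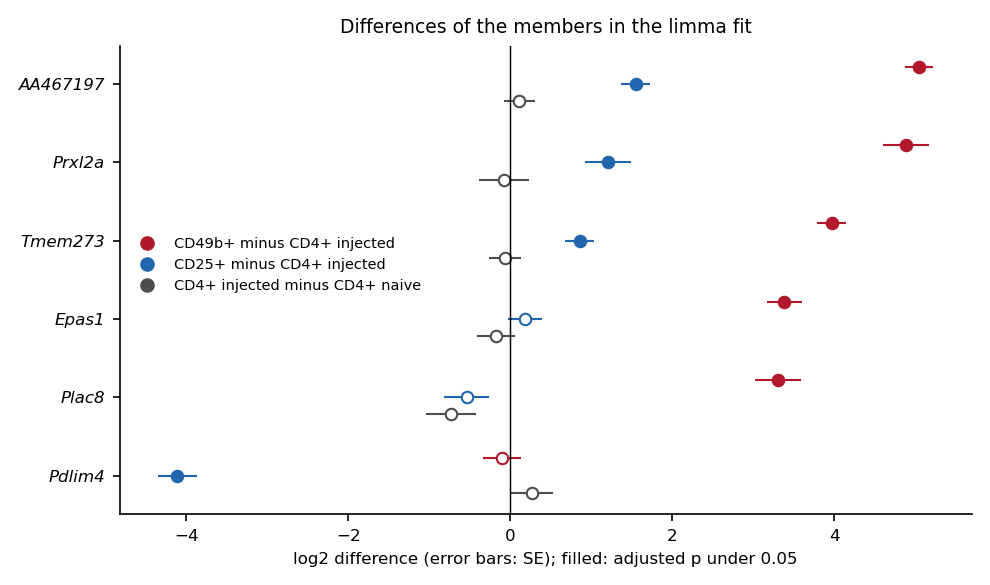
Log2 differences of the members (x axis, with SE) for CD49b+ and CD25+ cells against CD4+ cells of injected mice and for injected against naive CD4+ cells, filled where the adjusted p is under 0.05. Pdlim4, at -0.10 in CD49b+ and -4.11 in CD25+ cells, has another pattern than the other 5, which all lie above 3 in CD49b+ cells.

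Injected against naive CD4+ cells is the only comparison that shares no array with the difference that chose the members. None of the 6 members was called there by limma, beside 1.39% of all genes called either way, 0.0272% higher (3 genes) and 1.36% lower (150 genes). By limma, 1 member had an unadjusted p under 0.05, as did 1365 of the 11037 genes tested. The member was Plac8, at 7.04 and 7.47 in injected against 7.92 and 8.04 in naive arrays, -0.73 ± 0.31 (SE, unadjusted p = 0.0401, adjusted p = 0.372). Its arrays did not overlap, as for 30.0% of all genes in that direction. The other members differed by between -0.18 and 0.26, with adjusted p from 0.775 to 0.974. AA467197 and Tmem273 lay under the median of all 4 CD4+ arrays and passed the filter through the sorted subsets, so a fall of either after injection could hardly show. In these bulk samples, a change in the share of cells that express a gene cannot be told apart from a change in its RNA per cell.

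The levels of the members varied little among CD49b+ arrays (range 0.08 to 0.32) and more among CD25+ arrays (0.66 to 1.12). Replicate 1 of CD25+ cells was the lowest of the 3 for all 6 members, by 0.10 to 1.03 under the next. Of the 1926 genes called higher in CD49b+ than in CD25+ cells, 61.5% were lowest in that replicate, against 44.4% of all genes tested, so the members share this with many genes. Without it the differences of CD49b+ from CD25+ cells were 2.98 for Tmem273 to 3.74 for Pdlim4. Effector and memory T cell genes, which include Ccr2 and Cxcr6, averaged 10.86, 10.87 and 10.80 in CD49b+ arrays, 9.51, 9.69 and 9.97 in CD25+ arrays, 8.11 and 8.65 in CD4+ arrays of injected mice and 8.80 and 9.01 in naive arrays, and 21 of 22 tested were higher in CD49b+ cells (median 2.63) and 17 in CD25+ cells (median 1.39). Of 18 regulatory T cell genes tested, 16 were higher and 1 lower in CD49b+ cells (median 1.67), and 18 and 0 in CD25+ cells (median 3.03). They include Il2ra, whose product was used to sort the CD25+ cells. Of all genes tested against CD4+ cells of injected mice, 29.9% were higher and 23.5% lower in CD49b+ cells (median 0.03). In CD25+ cells the shares were 20.8% and 17.8% (median 0.02). Whether a share of effector, memory or regulatory T cells sets the members' levels was not tested.

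Over the 10 arrays, the 10 pairs among the 5 members other than Pdlim4 had Pearson r from 0.83 to 0.99, and the 5 pairs with Pdlim4 from 0.14 to 0.63, as a description across arrays that share groups. The tested genes most like AA467197 were Tktl1, Mns1 and Rps6ka5 (r 0.999, 0.998 and 0.996), and those most like Prxl2a were Eif2d, Ltb4r1 and Zyx (0.998, 0.998 and 0.995). Those most like Tmem273 were 5430427O19Rik, Ltb4r1 and Pparg (0.995, 0.995 and 0.994), and those most like Epas1 were Rbpj, Thtpa and Abcb10 (0.996, 0.993 and 0.992). Plac8 was most like Rtf1, Gsn and Sike1 (0.995, 0.989 and 0.989). For Pdlim4 they were Acss2, Sema4a and Ncmap (0.981, 0.980 and 0.974), and 19 genes had an r above 0.95 with it, against 99 to 291 for the other members.

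The genes of the pathways the members belong to were taken as lists, whose counts stand beside 29.9% of all genes tested higher and 23.5% lower in CD49b+ cells, and 20.8% higher and 17.8% lower in CD25+ cells. Of 13 tested regulators of HIF, 4 were higher and 1 lower in CD49b+ against CD4+ cells of injected mice (median 0.07, all genes 0.03), and 4 and 0 in CD25+ cells (median -0.01, all genes 0.02). In CD49b+ cells these counts lie near or under the shares over all genes. Egln3, a prolyl hydroxylase that marks HIF alpha chains for degradation, rose by 2.02 ± 0.22 in CD49b+ cells (limma adjusted p = 7.1e-05) and by 1.13 ± 0.22 in CD25+ cells (adjusted p = 0.00349). Arnt2, a partner chain of HIF alpha, rose by 0.94 and 1.76. Centred on array medians, the counts were 6 and 0 in CD49b+ and 5 and 0 in CD25+ cells. Counts after centring, here and for the lists below, stand beside other shares of all genes. These were 44.4% higher and 12.3% lower in CD49b+ cells (median 0.22), and 35.9% and 9.75% in CD25+ cells (median 0.18). After quantile normalization the shares were 29% and 20.4%, and 19.9% and 15.1%.

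Of 25 tested hypoxia response targets, 12 were higher and 7 lower in CD49b+ cells (median 0.30), and 7 and 6 in CD25+ cells (median -0.02), or 14 and 3, and 9 and 3, after centring, where the median in CD25+ cells turned to 0.14. Bhlhe40, a transcription factor, and Ero1a, an oxidase of protein folding, rose by 2.45 and 2.01 in CD49b+ cells, and Bhlhe40 and Slc2a3, a glucose transporter, by 1.80 and 1.59 in CD25+ cells. Of 26 peroxiredoxin, thioredoxin and other antioxidant genes, 15 were higher and 5 lower in CD49b+ cells (median 0.42) and 10 and 4 in CD25+ cells (median 0.21), or 17 and 3, and 13 and 2, after centring. Prdx4, a peroxiredoxin of the endoplasmic reticulum, rose by 1.55 and 1.06, and Glrx by 1.50 in CD49b+ cells and Txn1 by 0.99 in CD25+ cells. Of 12 cytochrome c oxidase subunits and Ndufa4 relatives, 7 were higher and 1 lower in CD49b+ cells (median 0.39) and 3 and 1 in CD25+ cells (median 0.17), with Cox7a2l lower by -0.77 and -0.57. The counts were 11 and 1, and 8 and 1, after centring, and 7 and 1, and 1 and 1, after quantile normalization.

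Of 14 PDZ-LIM proteins and actin partners, 8 were higher and 3 lower in CD49b+ cells (median 0.35, with 10 and 2 after centring and 5 and 3 after quantile normalization), and 2 and 5 in CD25+ cells (median -0.10, which turned to 0.06 with 4 higher and 3 lower after centring). Actn1, the alpha-actinin of the actin skeleton, fell by 3.10 in CD49b+ cells and by 1.43 in CD25+ cells. Zyx, a focal adhesion protein, rose by 1.95 in CD49b+ cells, and Pdlim1, a relative of Pdlim4, fell by 1.01 in CD25+ cells, against the 4.11 of Pdlim4. Unlike Pdlim4, Pdlim1 was also lower in CD49b+ cells, at 8.72, 8.80 and 8.91 against 9.45 and 9.57 in CD4+ cells of injected mice. The only tested Plac8 relative, Plac8l1, was lower in CD25+ cells by 0.34 (log2 difference -0.34, limma adjusted p = 0.00825), a call lost on centring (-0.18, adjusted p = 0.0893).

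**Figure D3:**
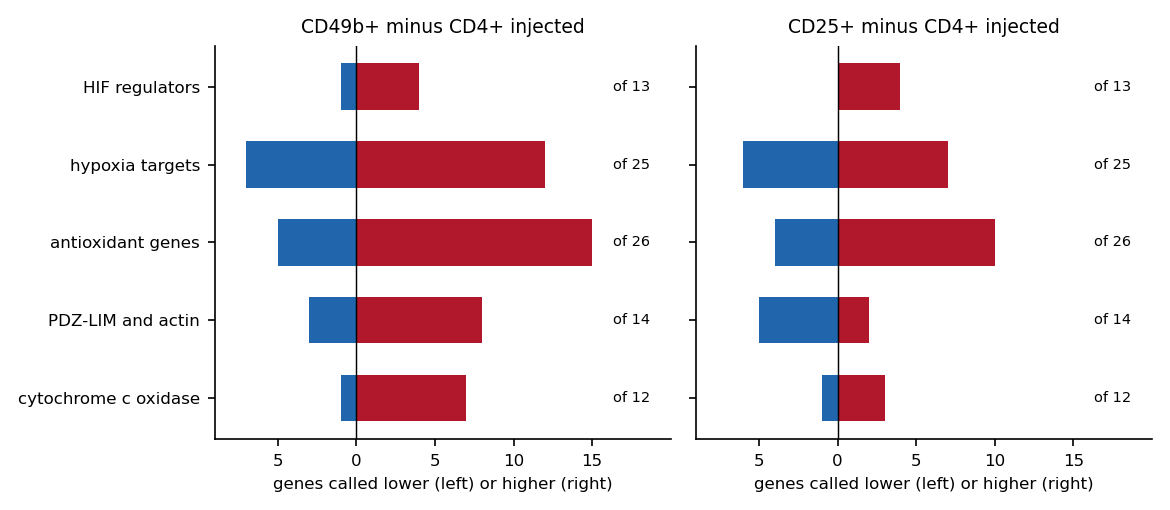
Counts of list genes called higher (red, right) or lower (blue, left) in CD49b+ (left panel) and CD25+ cells (right panel) against CD4+ cells of injected mice, with the number tested at the right. The bars are counts and so depend on the size of a list. Of the 5 lists drawn, the largest, antioxidant genes, had 15 of 26 higher in CD49b+ and 10 of 26 in CD25+ cells. In CD49b+ cells 7 of 12 oxidase genes and 8 of 14 PDZ-LIM and actin genes were higher. Of all genes tested, 29.9% were higher and 23.5% lower in CD49b+ cells, and 20.8% and 17.8% in CD25+ cells.

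Markers of other cells that the sort could hold were measured beside the members. Their counts stand beside 29.9% of all genes tested higher and 23.5% lower in CD49b+ cells, and 20.8% and 17.8% in CD25+ cells. The mean of 13 natural killer markers lay at 5.49 to 5.82 in CD49b+ arrays, 4.93 to 5.13 in CD25+ arrays, 5.13 to 5.17 in injected CD4+ arrays and 5.33 to 5.41 in naive arrays. In CD49b+ against CD4+ cells 4 of the 10 tested were higher and 3 lower. Gzmb and Gzma, granzymes that activated T cells also make, rose by 5.22 and 3.97, and Ncr1 and Fcgr3 by 0.65 and 0.29. Tyrobp, Prf1 and Eomes fell by 1.81, 1.10 and 0.91. In CD25+ cells 3 were higher and 4 lower, with Gzmb higher by 2.18 and Klrd1 lower by 1.84 (log2 difference -1.84). Ncr1, an activating receptor that defines natural killer cells, stood at 5.04, 5.54 and 4.79 in CD49b+ cells, at 5.21, 5.52 and 4.87 in CD25+ cells, at 4.43 and 4.51 in injected CD4+ cells and at 4.47 and 4.43 in naive CD4+ cells. Klrb1c and Klra8, further receptors of that lineage, lay between 4.45 and 4.68 and between 3.23 and 3.48 over all 10 arrays. Both were too dim to test, and whether their probe sets match the DBA/1 forms of these genes was not tested. Of 12 tested myeloid and dendritic markers, 0 were higher and 7 lower in CD49b+ cells, and 4 higher and 4 lower in CD25+ cells. There Batf3 and Fcer1g rose by 2.01 and 1.90. The 4 lower in CD25+ cells were Mpeg1, Itgax, Flt3 and Adgre1 (log2 differences -1.54, -1.17, -0.83 and -0.52). The means of the 15 measured lay at 5.06 to 5.15, 5.45 to 5.66, 5.56 to 5.61 and 5.94 to 6.08 in CD49b+, CD25+, injected and naive CD4+ arrays. The 11 endothelial and stromal markers, which belong to a cell type known for Epas1, lay at 4.34 to 4.36 in CD49b+ cells and 4.33 to 4.43 in CD25+ cells against 4.63 to 4.65 in both CD4+ groups. These means were under the array medians, which also differed, at 4.61 to 4.65 in the subsets and 4.79 to 4.81 in the CD4+ groups. Of the 4 tested, 1 was higher and 2 lower in CD49b+ cells, against 0 and 2 in CD25+ cells. In CD25+ cells the counts were 1 and 1 after centring and after quantile normalization. Cdh5 and Tek were under the array medians throughout. In each group, 3 of the 11 were above the medians on all of its arrays, though not the same 3 in every group. Pecam1 was among them in every group, and it fell by 1.13 in CD49b+ and by 0.73 in CD25+ cells. The 7 B cell markers averaged 4.43 to 4.50 in CD49b+ and 4.57 to 4.65 in CD25+ arrays, against 4.53 to 4.64 in injected and 4.69 to 4.72 in naive CD4+ arrays. Of the 3 bright enough to test, Cd79b was higher in both subsets (0.96 and 1.53), and Cd22 was lower in CD49b+ cells (-0.65). The third, Cd79a, was called in neither subset. Ms4a1, Ighm, Pax5 and Ebf1 were too dim to test. The 10 neutrophil and basophil markers averaged 3.99 to 4.19 on all arrays, and the 2 CD8 T cell genes 4.38 to 4.72. Of 5 tested platelet markers, Itgb3 alone was called in the deposited scaling, higher in CD49b+ cells (0.83) and lower in CD25+ cells (-0.57). Its call in CD25+ cells was lost on centring (-0.41, limma adjusted p = 0.0668). After centring and after quantile normalization, 2 platelet markers were higher in CD49b+ cells. The 8 platelet markers averaged 4.87 to 4.93 in CD49b+, 4.62 to 4.85 in CD25+, 4.79 to 4.96 in injected and 4.82 to 4.86 in naive CD4+ arrays. Their part in the members' values was not tested.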

How the data were processed

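RNA from sorted, pooled CD4+ T cells was labelled (100 ng each) and hybridised to 10 Affymetrix mouse arrays, per the labels' protocols. The deposited values are log2 expression levels for which the submitters' processing notes name GCRMA and Expression Console (Affymetrix, 1.2.1), tools the authors ran with no settings given. Joint normalization of the 10 arrays is stated in no source used here. The members and lists were chosen with earlier results of these data known.

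Of 45141 probe sets, 104 controls were set aside. Of the other 45037, 28898 carried 1 gene symbol, 551 several and 15588 none, and 28689 matched a gene number in the RefSeq table. The 17097 genes were each taken from the probe set with the highest mean. Genes with at least 2 arrays above the 50th percentile of their array were tested, which left 11037 and set aside 6060.

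The limma fit (lmFit and eBayes, limma 3.58.1, R 4.3.3, figures in Python 3.11.15) of 4 group means had 6 residual degrees of freedom, and p-values were adjusted over all genes by Benjamini-Hochberg within each comparison, two-sided, with calls at an adjusted p under 0.05. The fit was checked on simulated data. The rule for named genes takes the members, the 3 tested genes most like each, up to 2 called genes with the greatest change per list, and the sort markers. Among the markers of other cells, further genes are named beyond this rule. Replicate numbers come from the labels. Same-numbered CD49b+ and CD25+ arrays deviated together (r = 0.158, 0.366 and 0.641), and differently numbered ones had r from -0.5 to 0.135. Spiked-in control RNAs averaged 8.53 and 8.41 on the replicate 3 arrays of these groups, against 6.21 to 6.93 on their other arrays. A pairing of samples by number therefore cannot be told apart from shared processing. The reported p-values come from the fit without pairing. The alternatives were other filters, scalings, priors, probe set rules, comparators and array weights, a 2-fold threshold, the replicate block and each array left out in turn. The number of arrays limits the precision.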

Additional observations from a re-analysis of the deposited data

Results flagged for a closer look

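The Plac8 level of all 3 CD49b+ arrays lay above the mean of CD4+ cells of injected mice and that of all 3 CD25+ arrays under it, which gives a difference between the subsets of 3.84. The difference was not tested, because it is the contrast that chose the gene. The difference of CD25+ from CD4+ cells was not called (-0.54 ± 0.28 SE, limma adjusted p = 0.158), and their arrays overlapped.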

How the results depend on the processing

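The 5 members called in CD49b+ and the 0 called in injected against naive CD4+ cells held those counts in all 18 and all 16 alternatives, the replicate block included. In CD25+ against CD4+ cells the count of 4 lay between 3 and 5 over 18 alternatives, and the replicate block kept 4. The median difference of the members in CD49b+ against CD25+ cells ran from 3.31 to 3.73. With the mean of the probe sets, the difference was 2.55 for Epas1 and 1.61 for Tmem273. Genes called moved more. Against CD4+ cells and with no filter they were 9123 for CD49b+ and 7583 for CD25+ cells, with every probe set 12639 and 8769, and 5677 in CD49b+ against CD25+, and with the stricter filter 2500 in CD25+ against CD4+ cells. At 2-fold they were 1066, 711 and 562, and 68 in injected against naive cells. Injected against naive cells gave 153 as reported, 328 with array weights, 377 with the replicate block, 526 with the naive numbers crossed (an alternative added after seeing the data, since same-numbered arrays there deviated with r = -0.209), 0 with only the arrays compared (1737 at an unadjusted p under 0.05 by limma) and 15 to 116 without 1 array, where a group left with 1 array took the spread of the others. Leaving out 1 array gave 2792 to 3965 in CD25+ against CD4+ cells, 4318 to 5351 in CD49b+ against CD4+ cells and 2484 to 3129 in CD49b+ against CD25+ cells. The cause of these moves was not tested.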

Other observations

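Genes next to the members on the chromosome were read by position after the members' values had been seen. Of the 24 neighbours, 2 on each side, 13 were bright enough to test. In CD49b+ against CD4+ cells of injected mice 3 were higher and 5 lower, beside 29.9% and 23.5% of all genes tested, and in CD25+ cells 0 were higher and 4 lower, beside 20.8% and 17.8%. The greatest difference in CD49b+ cells was a fall in Slc30a4, a zinc transporter beside AA467197 on chromosome 2, which averaged 5.41 in CD49b+ and 5.98 in CD25+ cells against 6.84 in CD4+ cells of injected mice. On its other side, Slc28a2, a nucleoside transporter, was also lower in CD49b+ cells (-0.61). P4ha2, a collagen prolyl hydroxylase beside Pdlim4 on chromosome 11, had a mean of 5.19 in CD49b+ and 4.31 in CD25+ cells against 4.66 in CD4+ cells of injected mice, where it was called higher in CD49b+ (0.54) and lower in CD25+ cells (-0.35). Tspan14, a tetraspanin beside Prxl2a on chromosome 14, averaged 8.95 in CD49b+ and 7.87 in CD25+ cells against 8.16 in CD4+ cells, and was called higher in CD49b+ cells (0.79).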
